A study of Mus musculus with 12 samples.

Results

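Leukaemia inhibitory factor (LIF) signalling was followed in mouse fibroblasts during early reprogramming through 10 genes: the ligand Lif, the receptor chains Lifr and Il6st (gp130), the kinases Jak1 and Jak2, the transcription factor Stat3, the inhibitors Socs1, Socs2 and Socs3, and the Stat3-induced kinase gene Pim1. These were 10 of the 22180 genes that the arrays measured with a probe set naming a single gene. A gene with several such probe sets was represented by the one with the highest mean over the 12 arrays.

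LIF binds the LIF receptor, which pairs with gp130, the signalling chain shared by the interleukin-6 family of cytokines. Janus kinases attached to these chains then phosphorylate Stat3, which enters the nucleus and switches on target genes, among them Socs3. Socs proteins bind the receptors or the kinases and dampen the signal, so that Socs genes are commonly read as feedback targets. In mouse embryonic stem cells this pathway sustains self-renewal, and LIF is a standard component of reprogramming medium.

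The cells were mouse embryonic fibroblasts from E13.5 embryos of a strain labelled C57Bl/6 and 129X1/SvJ, with the genotype Col1a1::tetOP-OKSM ; R26-M2rtTA. In these cells doxycycline switches on Oct4, Klf4, Sox2 and c-Myc from a cassette at the Col1a1 locus, through a transactivator expressed from the Rosa26 locus. Every group was induced with doxycycline in medium with 15% serum and 1000 U/ml LIF, so that no group was without LIF. The 4 groups, with 3 arrays each, were a Renilla hairpin (control) at day 3, a Chaf1a hairpin (knockdown) at day 3, the control at day 6 and the knockdown at day 6. Both hairpins were delivered by retrovirus. CAF-1, whose largest subunit is the product of Chaf1a, is the chaperone that deposits histones during DNA replication, and the series asks how its loss affects reprogramming. Uninduced fibroblasts and stem cells were not analysed here. Whether the replicates were separate cultures or embryos is not given in the labels, so that p-values measure the spread between these samples only.

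Affymetrix arrays give a probe set's brightness, here as the log2 of the deposited intensity, and levels of different genes are not compared on this scale. Array medians were 39.5 to 43.3 in intensity, and the 12 arrays limit the precision. Chaf1a itself had log2 intensities of 7.53 ± 0.17 (SD, n = 3) in control and 7.24 ± 0.09 (SD, n = 3) in knockdown at day 3, and 7.22 ± 0.14 (SD, n = 3) and 7.10 ± 0.06 (SD, n = 3) at day 6. It was lower in knockdown at both days, but neither difference passed in limma (adjusted p = 0.726 and 0.999). Of 10 fibroblast markers, Lum was below the low-value threshold on every array, and the other 9 were kept. Replicate 2 of the day 3 knockdown stood apart in the average of 7 interferon-stimulated genes kept of 8 measured. Their mean log2 value lay 1.28 above the 12-array mean, against -0.25 to 0.01 on the other 11 arrays. This did not hold for every gene, since Ifit3 was at most 6.54 in day 3 knockdown and averaged 6.43 in day 3 control.

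All 10 genes were at or above the low-value threshold on all 12 arrays. In limma with Benjamini-Hochberg adjustment over 17860 genes, 7 of the 10 genes passed between day 3 and day 6 in control, 5 higher and 2 lower. Of all genes tested, 17.6% passed in that comparison, 6.99% higher and 10.6% lower. In knockdown 5 of the 10 genes passed, 4 higher and 1 lower, against 17.9% of all genes, 7.46% higher and 10.5% lower. The same 5 genes (Lifr, Il6st, Socs2, Socs3 and Jak1) passed with the same sign in both hairpin groups, as did 11.7% of all genes, and these 2 comparisons share no array. The day 3 and day 6 arrays did not overlap for 8 of the 10 genes in control, 5 higher and 3 lower, against 35.3% of all genes (16% higher and 19.3% lower). In knockdown they did not overlap for 9 of the 10 genes, 6 higher and 3 lower, against 34.3% of all genes (15.4% higher and 18.9% lower). The median log2 fold change of the 10 genes was 0.12 in control and 0.14 in knockdown, beside 0.01 for all genes in each. The 10 genes were chosen with earlier results of these data known, so these shares and medians are descriptive.

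**Figure D1:**
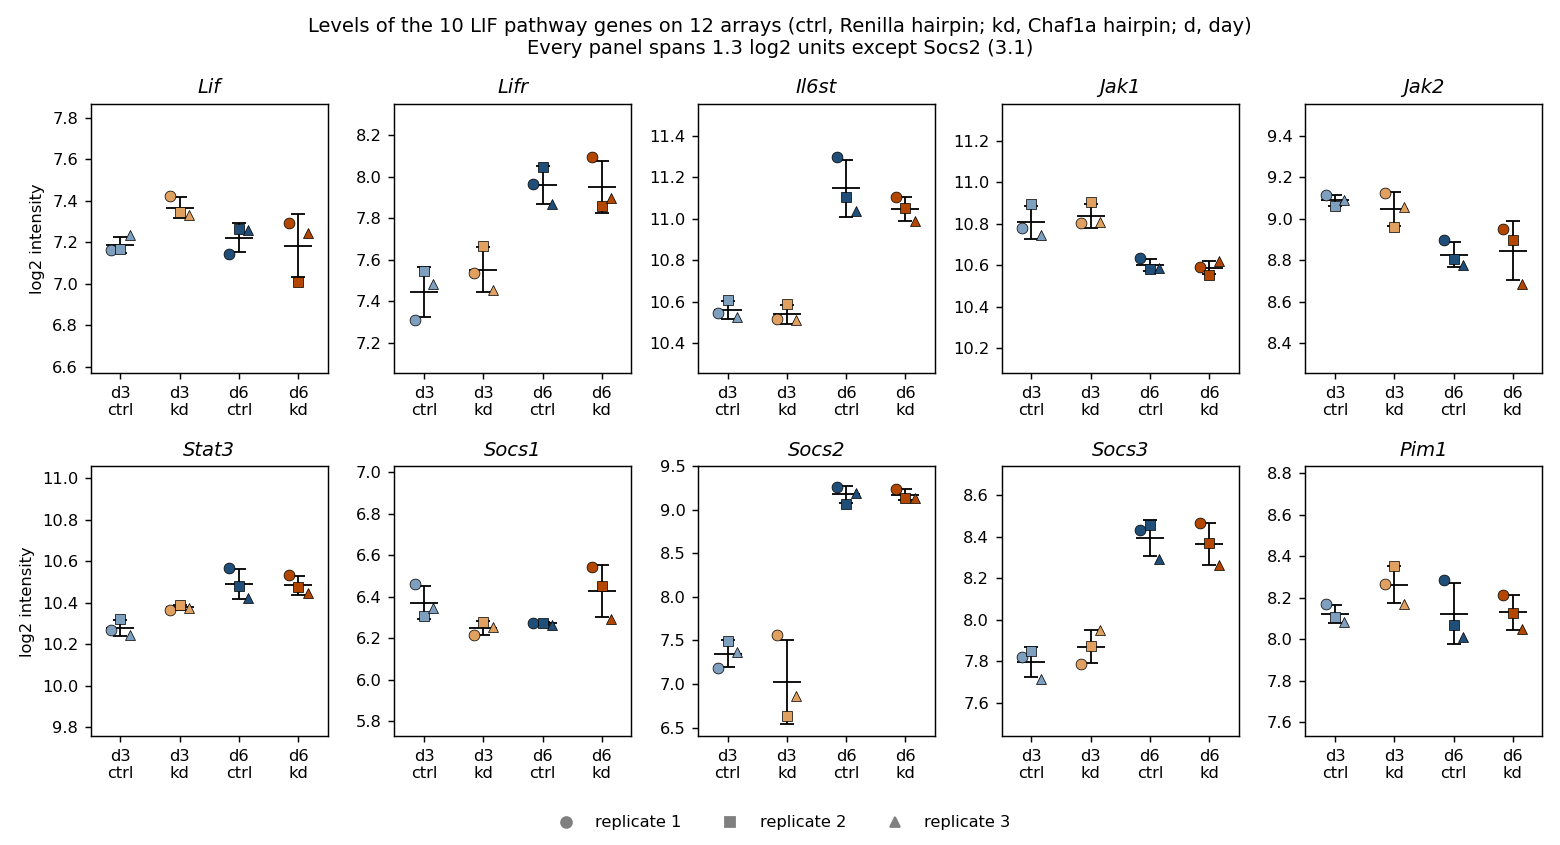
Log2 intensity (vertical axis) of each of the 10 genes on the 12 arrays, by group (ctrl, Renilla hairpin; kd, Chaf1a hairpin; d3 and d6, days of induction); symbols mark the replicate number, and bars show the mean and SD of 3 arrays. For Socs2 every day 6 array is above 9.0 and every day 3 array is below 7.6, while the groups of Lif, Socs1 and Pim1 lie close together.

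**Figure D2:**
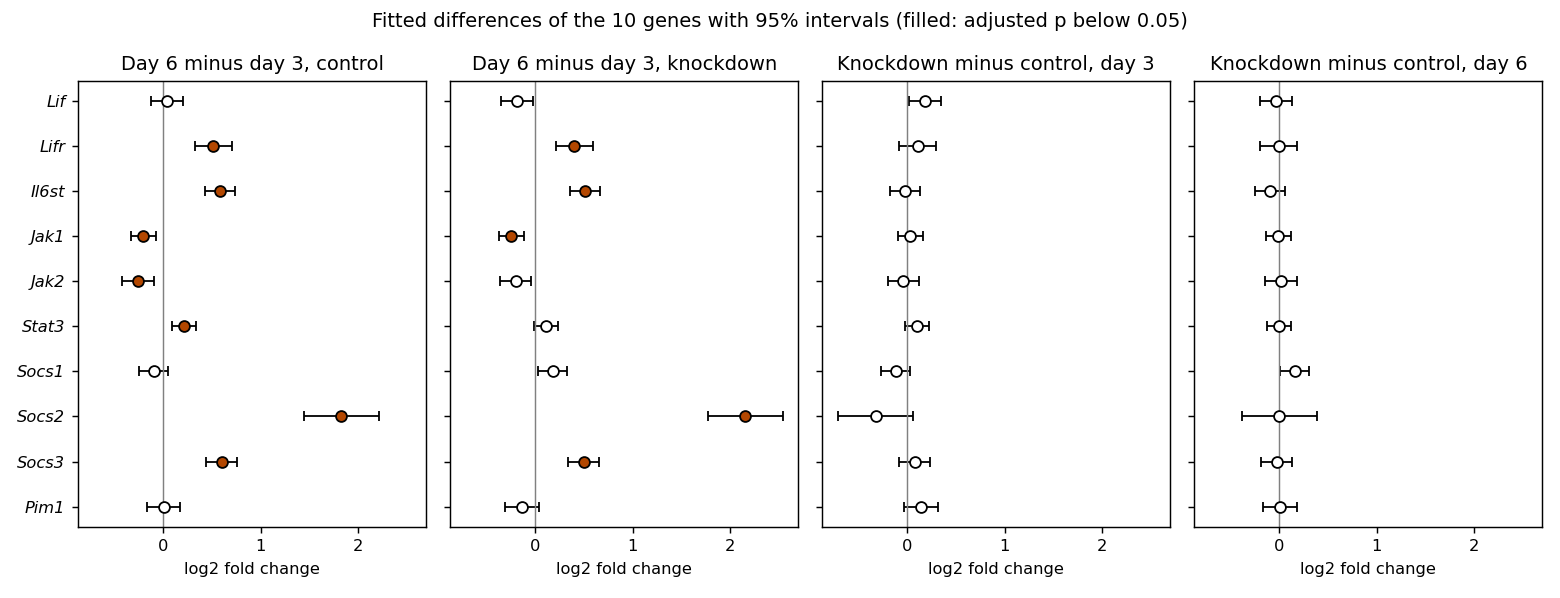
Fitted log2 fold changes (horizontal axis) of the 10 genes with 95% confidence intervals, for day 6 minus day 3 in each hairpin group and knockdown minus control at each day; filled points passed an adjusted p of 0.05 in limma. Filled points occur in the panels of time, with Socs2 at 1.83 and 2.16, and none occurs in the panels of knockdown.

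Promoter sequences are shown for Socs3 and Il6st because both genes rose together with time and Stat3 is known to bind near many of its targets. The search covered the 250 bases before each start in RefSeq promoters (GRCm38.p6) for the Stat consensus TTCNNNGAA, which is its own reverse complement and so covers both strands. Promoters were found for 9 of the 10 genes, as 11 windows, and Socs2 was not among them. The consensus was in 1 of the 11 windows, that of Socs3. This is 9.09% of the windows, near the 7.02% of all 32851 promoters. The Socs3 match lay 154 to 146 bases before the start, at chr11:117969502-117969530 on the minus strand with 10 bases on either side, and the window lies within the annotated extent of the gene. The Il6st window, at chr13:112463820-112464069 on the plus strand, was 66.0% G and C and held no match. Capitals mark the consensus.
Socs3 site: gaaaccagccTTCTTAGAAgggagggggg
Il6st promoter: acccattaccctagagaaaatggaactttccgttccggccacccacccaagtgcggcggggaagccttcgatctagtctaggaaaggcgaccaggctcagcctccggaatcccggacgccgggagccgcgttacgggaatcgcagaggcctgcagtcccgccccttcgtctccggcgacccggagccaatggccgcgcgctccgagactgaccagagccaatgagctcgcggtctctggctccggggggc
A match describes the letters of this window, and binding was not measured.

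The ligand gene Lif (chr11:4257568-4272514) changed little. Its log2 intensities in control were 7.16, 7.17 and 7.23 at day 3 and 7.14, 7.27 and 7.26 at day 6, and these ranges overlap. In knockdown they were 7.43, 7.35 and 7.33 at day 3 and 7.29, 7.01 and 7.25 at day 6, with every day 6 array below the day 3 arrays. The log2 fold change from day 3 to day 6 was 0.04 (SE 0.08, adjusted p = 0.810 in limma) in control and -0.18 (SE 0.08, adjusted p = 0.119 in limma) in knockdown. Neither passed.

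Both receptor genes rose. Lifr (chr15:7090610-7197489), which encodes the chain specific to LIF and its close relatives, had control values of 7.31, 7.54 and 7.48 at day 3 and 7.97, 8.05 and 7.87 at day 6. Its knockdown values were 7.54, 7.67 and 7.45 at day 3 and 8.10, 7.86 and 7.90 at day 6. In both hairpin groups each day 6 array was above each day 3 array. The rise was 1.43-fold in control (log2 fold change 0.52, SE 0.09, adjusted p = 0.00194 in limma) and 1.32-fold in knockdown (0.40, SE 0.09, adjusted p = 0.00787).

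Il6st (chr13:112464070-112506860) encodes gp130, the chain through which LIF and its relatives signal. In control it had 10.55, 10.61 and 10.53 at day 3 and 11.30, 11.11 and 11.04 at day 6. In knockdown it had 10.52, 10.59 and 10.51 at day 3 and 11.10, 11.05 and 10.99 at day 6. The day 3 arrays of both hairpin groups lay within 0.10 of each other, and all 6 day 6 arrays were higher. Il6st rose 1.50-fold in control (log2 fold change 0.59, SE 0.07, adjusted p = 2.08e-04 in limma) and 1.42-fold in knockdown (0.51, SE 0.07, adjusted p = 4.86e-04).

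The kinase genes went the other way. Jak1 (chr4:101151974-101265282) encodes the principal kinase of gp130 signalling. Its control values were 10.78, 10.90 and 10.74 at day 3 and 10.63, 10.58 and 10.59 at day 6. In knockdown they were 10.80, 10.90 and 10.81 at day 3 and 10.59, 10.56 and 10.62 at day 6. All 6 day 6 arrays were below all 6 day 3 arrays. Jak1 fell 1.15-fold in control (log2 fold change -0.21, SE 0.06, adjusted p = 0.0304 in limma) and 1.19-fold in knockdown (-0.25, SE 0.06, adjusted p = 0.0121). The control call was lost without day 3 control replicate 2, without any one of the 3 day 6 control arrays, with quantile normalization and with the 2 groups fitted alone, with adjusted p-values up to 0.108, whereas the knockdown call was kept in every alternative run.

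Jak2 (chr19:29251803-29313095), a related kinase that also serves the receptors of erythropoietin and growth hormone, had control values of 9.12, 9.06 and 9.09 at day 3 and 8.90, 8.81 and 8.78 at day 6. Its knockdown values were 9.13, 8.96 and 9.06 at day 3 and 8.95, 8.90 and 8.68 at day 6. The days did not overlap within either hairpin group, although the highest day 6 and the lowest day 3 knockdown arrays were next to each other. Jak2 fell 1.20-fold in control (log2 fold change -0.26, SE 0.08, adjusted p = 0.0310 in limma), and its difference in knockdown of -0.20 (SE 0.08, adjusted p = 0.0831) did not pass. The control call was lost when any one of the 3 day 3 control arrays, or day 6 control replicate 2 or 3, was left out, and with quantile normalization (adjusted p = 0.0702).

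Stat3 (chr11:100886806-100939594), the transcription factor at the end of the cascade, had control values of 10.27, 10.32 and 10.25 at day 3 and 10.57, 10.48 and 10.42 at day 6. In knockdown it had 10.37, 10.39 and 10.37 at day 3 and 10.53, 10.48 and 10.44 at day 6. The day 6 arrays were above the day 3 arrays within each hairpin group. Stat3 rose 1.16-fold in control (log2 fold change 0.21, SE 0.06, adjusted p = 0.0241 in limma), and its knockdown difference of 0.11 (SE 0.06, adjusted p = 0.234) did not pass. The control call was lost without day 3 control replicate 1 or 3 and without day 6 control replicate 1 or 2. It was also lost with the 2 groups fitted alone (adjusted p = 0.0685). Differences were 0.17 to 0.24 among the fits that left out an array. These are transcript levels, and phosphorylated Stat3 was not measured.

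Socs2 (chr10:95383903-95417321) changed most among the 10 genes. It encodes an inhibitor best known for restraining growth hormone signalling, and it is also induced by LIF. In control its log2 intensities were 7.19, 7.49 and 7.36 at day 3 and 9.27, 9.07 and 9.20 at day 6. In knockdown they were 7.56, 6.63 and 6.86 at day 3 and 9.25, 9.14 and 9.14 at day 6. The day 6 arrays of both hairpin groups lay close together and far above every day 3 array, and the day 3 knockdown arrays were the most spread (7.02 ± 0.48, SD, n = 3). The rise was 3.56-fold in control (log2 fold change 1.83, 95% confidence interval 1.45 to 2.22, adjusted p = 4.31e-05 in limma) and 4.46-fold in knockdown (2.16, interval 1.77 to 2.54, adjusted p = 1.15e-05). By size of rise it ranked 16th in control and 8th in knockdown among the 17860 genes tested.

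Socs3 (chr11:117966079-117970336), the main feedback inhibitor of gp130, rose less. Its control values were 7.82, 7.85 and 7.71 at day 3 and 8.43, 8.46 and 8.29 at day 6. Its knockdown values were 7.79, 7.87 and 7.95 at day 3 and 8.46, 8.37 and 8.26 at day 6. All 6 day 6 arrays were above all 6 day 3 arrays. The rise was 1.52-fold in control (log2 fold change 0.60, SE 0.07, adjusted p = 2.22e-04 in limma) and 1.41-fold in knockdown (0.50, SE 0.07, adjusted p = 7.45e-04).

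Socs1 (chr16:10783808-10785536), an inhibitor of Jak kinases best known from interferon signalling, passed in neither hairpin group. In control it had 6.46, 6.31 and 6.34 at day 3 and 6.27, 6.27 and 6.26 at day 6, with the day 6 arrays the lower. In knockdown it had 6.21, 6.28 and 6.25 at day 3 and 6.54, 6.45 and 6.29 at day 6, with the day 6 arrays the higher. The log2 fold changes were -0.10 (SE 0.07, adjusted p = 0.377 in limma) in control and 0.18 (SE 0.07, adjusted p = 0.0957) in knockdown. Without day 6 knockdown replicate 3 the knockdown difference was 0.25 and passed (adjusted p = 0.0292). Replicate 2 of the day 3 knockdown, where interferon-stimulated genes were high on average, was not apart from the other 2 arrays of its group in Socs1. In Socs2 this replicate was the lowest of all arrays. The part of the interferon-stimulated state in either gene was not tested.

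Pim1 (chr17:29490785-29496111), a serine/threonine kinase gene that Stat3 activates in many cells, showed no call. Its control values were 8.17, 8.11 and 8.08 at day 3 and 8.29, 8.07 and 8.01 at day 6, which overlap. Its knockdown values were 8.27, 8.35 and 8.17 at day 3 and 8.21, 8.12 and 8.05 at day 6, which also overlap. The log2 fold changes were 0.00 (95% confidence interval -0.17 to 0.18, adjusted p = 0.985 in limma) in control and -0.13 (interval -0.31 to 0.04, adjusted p = 0.288) in knockdown.

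Socs2, Socs3 and Pim1 each had a second, dimmer probe set. The second probe set of Socs2 had group means of 5.56, 5.56, 6.25 and 6.40 in day 3 control, day 3 knockdown, day 6 control and day 6 knockdown. Its rise was smaller on the log2 scale than that of the brighter one, at 0.69 in control and 0.84 in knockdown. The second probe set of Socs3 gave 0.37 and 0.52, and that of Pim1 gave 0.09 and -0.13. For Socs2 and Socs3 both probe sets were thus higher at day 6 in both hairpin groups, and the size of the Socs2 rise differed between its probe sets.

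**Figure D3:**
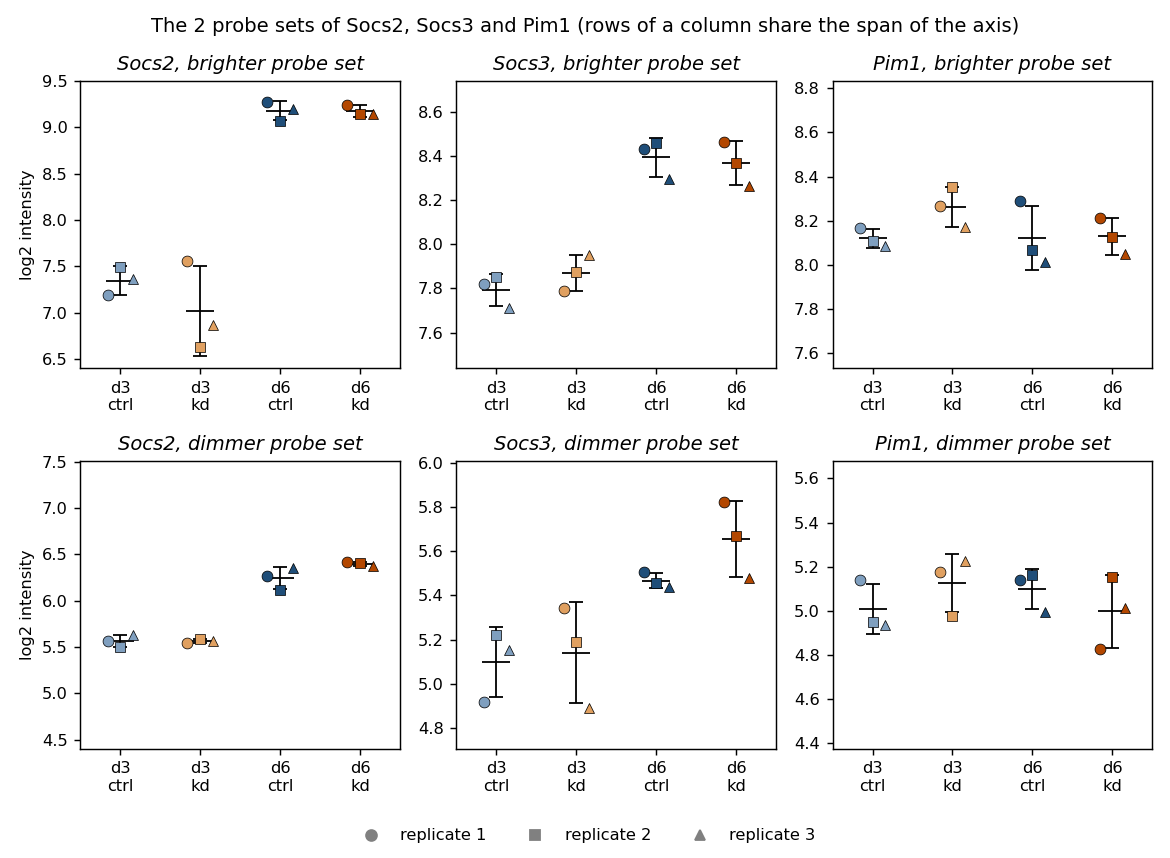
Log2 intensity (vertical axis) on the 12 arrays of both probe sets of Socs2, Socs3 and Pim1, the brighter in the top row and the dimmer below, by group as labelled; bars show mean and SD of 3 arrays and symbols the replicate number. The dimmer Socs2 probe set rises from 5.56 to 6.25 in control, against 7.35 to 9.18 in the brighter one.

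All 12 arrays share the step between the days, which enters every correlation over them. Over the 12 arrays Pearson's r was 0.963 between Il6st and Socs3 and 0.931 between Lifr and Socs3, and it was -0.926 between Jak1 and Socs2. With group means removed, r was 0.549 for Il6st and Socs3, 0.358 for Lifr and Socs3 and -0.17 for Jak1 and Socs2. Socs2 then had r of 0.02 with Il6st, 0.02 with Lifr, 0.08 with Stat3 and -0.28 with Socs3. The pairs highest after this step were Il6st with Stat3 at 0.955 and Il6st with Pim1 at 0.899. Replicate 1 had the highest value of Il6st, Stat3 and Pim1 within both day 6 groups.

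The genes most like each called member over the 12 arrays, among 16031 named genes, were as follows. For Socs2 these were Trib2 (r = 0.989) and Sptssb (r = 0.985), for Il6st Nab2 and Tgfbr2 (both 0.986), for Socs3 Mtss1 (0.984) and Ablim1 (0.979), and for Lifr Serping1 (0.973) and Mtss1 (0.972). Mtss1 was therefore among the closest genes of both Lifr and Socs3. For Jak1 they were Bag3 and Timp1 (both 0.983), for Stat3 Reck (0.959) and Bmp1 (0.958), and for Jak2 Gak and Filip1l (both 0.946). Of these genes, Gak passed in limma with time in neither hairpin group (adjusted p = 0.129 in control and 0.304 in knockdown), and Bmp1 did not pass in knockdown (adjusted p = 0.456). The values of r describe likeness over arrays that differ mainly by day and have no test.

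The Chaf1a hairpin changed none of the 10 genes past the threshold. At day 3 limma called 0 of the 10 genes and 0% of all genes tested. An unadjusted p under 0.05 was found for 1 of the 10 (Lif), and for 1074 of the 17860 genes, and the smallest adjusted p was 0.545. The groups did not overlap for 4 of the 10 genes, 3 higher and 1 lower in knockdown, against 10.8% of all genes (5.21% higher and 5.59% lower). Of these, Lif (log2 fold change 0.18, SE 0.08, adjusted p = 0.787), Pim1 (0.14, adjusted p = 0.861) and Stat3 (0.10, adjusted p = 0.869) had higher values in knockdown, and Socs1 (-0.12, adjusted p = 0.864) had lower ones. The 95% confidence interval of the Lif difference was 0.02 to 0.34. For Socs2 the difference was -0.33 (interval -0.71 to 0.06, adjusted p = 0.859), and it was -0.60 without day 3 knockdown replicate 1 and -0.13 without day 3 knockdown replicate 2. The other 5 genes lay between -0.04 and 0.11. The median over the 10 genes was 0.05, beside -0.01 for all genes.

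At day 6 limma again called 0 of the 10 genes, against 0.0392% of all genes (7 genes, and 793 with an unadjusted p under 0.05). Every adjusted p among the 10 was 0.999. Socs1 was the 1 gene of the 10 whose groups did not overlap, with higher values in knockdown (log2 fold change 0.16). The groups did not overlap for 10.6% of all genes, 5% higher and 5.57% lower. The other 9 genes lay between -0.10 (Il6st) and 0.02 (Jak2). For Socs2 the difference was -0.00 with a 95% confidence interval of -0.39 to 0.38, so that changes inside that interval are compatible with these arrays. The median over the 10 genes was -0.01, the same as for all genes.

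The difference of the knockdown effect between the days, which is also the difference of the time effect between the hairpins, passed for 0 of the 10 genes and 0% of all genes (910 with an unadjusted p under 0.05, smallest adjusted p 0.0978). It was 0.28 (SE 0.10, adjusted p = 0.918) for Socs1, 0.32 (SE 0.25, adjusted p = 0.991) for Socs2 and -0.22 (adjusted p = 0.978) for Lif. Stat3 and Jak2 thus passed with time in control and not in knockdown, without a difference between the hairpins that passed.

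Of 15 other ligands and receptors of the interleukin-6 family 12 were measured. Of these, 2 rose and none fell in control, and 1 rose and 1 fell in knockdown. These are 16.7% of the list in each comparison, near the 17.6% and 17.9% of all genes. The median log2 fold changes were 0.15 and -0.02. Osmr, the receptor chain for oncostatin M, which also pairs with gp130, had 9.24, 9.44 and 9.44 in day 3 control and 10.10, 9.90 and 9.77 in day 6 control. It rose in control (0.55, adjusted p = 0.00370 in limma) and in knockdown (0.34, adjusted p = 0.0427), where the call was lost without day 3 knockdown replicate 1 or 3 or day 6 knockdown replicate 1 or 2, with array weights, with no filter and with the 2 groups fitted alone. Ctf1, which encodes the LIF-related cytokine cardiotrophin-1, rose in control (0.30, adjusted p = 0.0311), a call lost without day 3 control replicate 2 or 3 or day 6 control replicate 1 or 2. Clcf1, another cytokine of the family, fell in knockdown (-0.51, adjusted p = 0.00776). It is named here after its values were seen.

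Of the other Jak and Stat genes, 6 of 8 were measured and 5 kept. None passed in control. In knockdown 1 passed, which is 20% of those kept against 17.9% of all genes. Stat6, the transcription factor of interleukin-4 signalling, fell there (-0.27, adjusted p = 0.00672 in limma). Stat2 had a larger difference, -0.52, which passed only without day 3 knockdown replicate 3 or day 6 knockdown replicate 1. Its knockdown values were 7.97, 8.55 and 7.57 at day 3 and 7.87, 7.39 and 7.26 at day 6. The highest was day 3 replicate 2, where interferon-stimulated genes were high on average. The part of that state in Stat2 was not tested. Stat2 is named here after its values were seen. Stat5b, a mediator of growth hormone signalling, had differences of 0.03 in control and -0.01 in knockdown.

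Among 13 other negative regulators, 2 rose and 2 fell in control, and 2 rose and 1 fell in knockdown. These are 30.8% and 23.1% of the list, against 17.6% and 17.9% of all genes. The median log2 fold changes were -0.01 and 0.04. Cish, the Socs family member closest to Socs2 and a known target of Stat5, had 6.64, 6.66 and 6.67 in day 3 control and 7.22, 7.26 and 7.21 in day 6 control. In knockdown it had 6.96, 6.68 and 6.41 at day 3 and 7.32, 7.18 and 7.23 at day 6, with all day 6 arrays above all day 3 arrays. It rose in both (0.57 and 0.56, adjusted p = 0.00298 and 0.00304 in limma). Ptpn6, the phosphatase SHP-1, also rose in both (0.29 and 0.41, adjusted p = 0.0212 and 0.00332). Socs6 fell in both (-0.27 and -0.39, adjusted p = 0.0394 and 0.00586), and Pias4 fell in control (-0.23, adjusted p = 0.0468). In control the Socs6 call was kept in 7 of 14 alternatives (adjusted p up to 0.138 in limma). The Pias4 call was kept in 6 of 14 (up to 0.169), the Ptpn6 call in 10 of 14 and the Cish call in all 14. The control count of 4 was 1 without day 3 control replicate 3 or day 6 control replicate 1 or 3, and 2 without day 3 control replicate 2 or day 6 control replicate 2 or with quantile normalization.

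Of 14 Stat3 targets and effectors of LIF known from embryonic stem cells, 1 rose and 1 fell in control and 2 rose and 1 fell in knockdown. These are 14.3% and 21.4% of the list, against 17.6% and 17.9% of all genes. The median log2 fold changes of the list were 0.17 and 0.01, beside 0.01 for all genes in each. Pim3, a kinase gene related to Pim1, rose in both (0.33 and 0.34, adjusted p = 0.00449 and 0.00326 in limma). Bcl6, a transcriptional repressor, fell in both (-0.66 and -0.54, adjusted p = 0.00265 and 0.00773). Tfcp2l1, a transcription factor of naive pluripotency, rose in knockdown (0.56, adjusted p = 0.00133), while its control difference of 0.18 did not pass (adjusted p = 0.228). The difference between these changes, 0.39, did not pass either (adjusted p = 0.918). With the replicate number as a block the control count was 4, with Klf5 (0.21, adjusted p = 0.0403) and Cebpd (0.28, adjusted p = 0.0204) added. Klf4 and Myc of this list are also in the induced cassette.

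The MAP kinase and PI3-kinase arm, which gp130 reaches through Shp2 and Gab1, was read from a list of 20 genes. Of these, 15 were measured, and 7 rose and 1 fell in control, and 7 rose and 2 fell in knockdown. These are 53.3% and 60% of the measured genes, against 17.6% and 17.9% of all genes. The list was chosen with earlier results of these data known, so these shares do not test for enrichment. The median log2 fold changes were 0.23 and 0.26. All 8 genes that passed in control passed with the same sign in knockdown. Egr1, an immediate early transcription factor induced by Erk signalling, had 8.79, 8.57 and 8.50 in day 3 control and 9.85, 9.68 and 9.40 in day 6 control, without overlap. It rose in both (1.02 and 0.85, adjusted p = 2.22e-04 and 6.94e-04 in limma). Dusp6, the phosphatase that feeds back on Erk, rose in both (0.69 and 0.83, adjusted p = 5.27e-04 and 1.25e-04). Etv5, an Erk-induced transcription factor, rose by 0.65 and 0.72, and the feedback inhibitor Spry2 by 0.43 and 0.60. Map2k1, a kinase gene of this arm, fell in both (-0.45 and -0.44), and both calls were kept in all 14 alternatives. Akt1 fell in knockdown, from a mean of 10.45 at day 3 to 10.28 at day 6, a call kept in 6 of 14 alternatives. Map2k1 and Akt1 are named here after their values were seen. Many receptors other than gp130 feed this arm, and the arrays do not separate them. In the 3 comparisons of the hairpins, limma called 0 of the 59 genes tested in these 5 lists, and 2 genes had an unadjusted p under 0.05 in each.

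**Figure D4:**
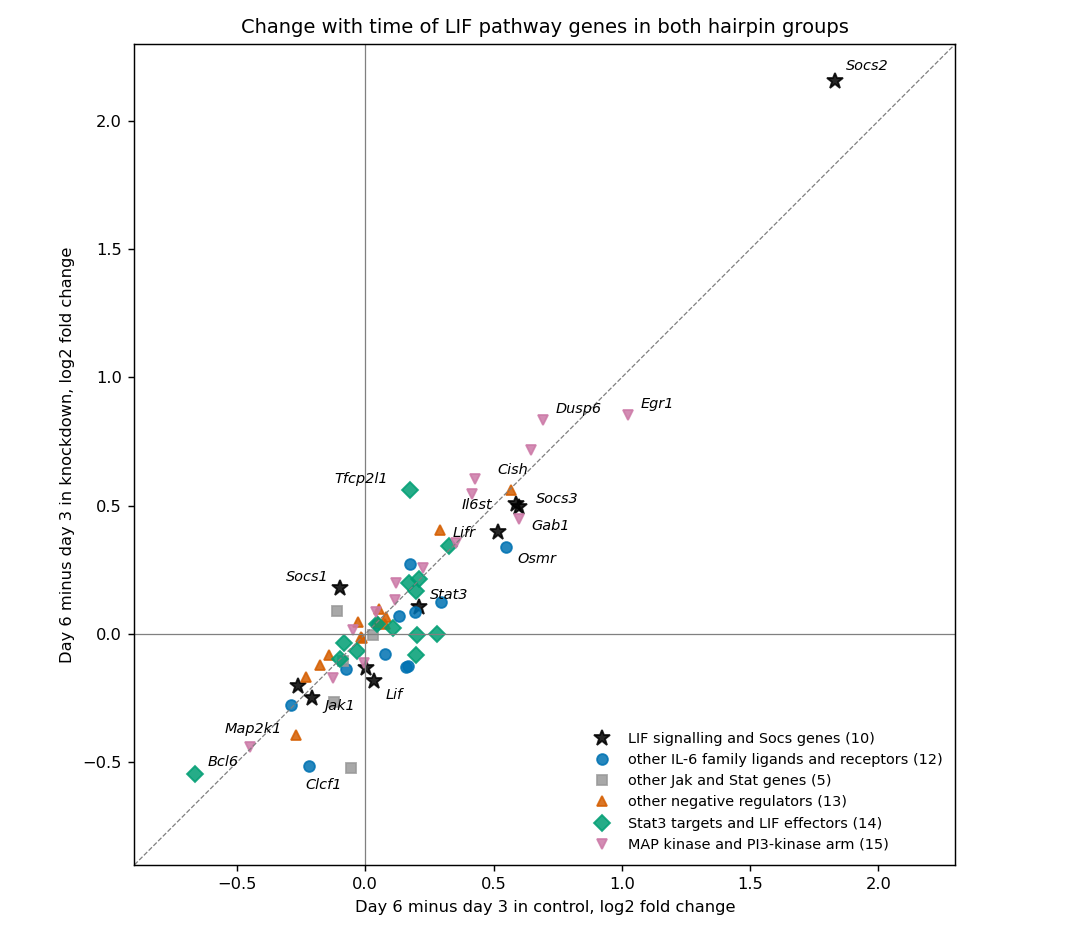
Log2 fold change from day 3 to day 6 in control (horizontal axis) and in knockdown (vertical axis) of the 10 genes (stars) and of the kept genes of 5 further lists, with the number of genes in brackets; the dashed line marks equal change. Socs2 stands at 1.83 and 2.16, Egr1 and Dusp6 come next, and the other 9 of the 10 genes lie between -0.26 and 0.60 on both axes.

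Fewer cells of a type and less RNA per cell cannot be told apart in these bulk samples, and marker lists for other cells also moved between the days. Of 8 macrophage and leukocyte markers 7 were kept, and 1 passed in control and 2 in knockdown, all lower at day 6. These are 14.3% and 28.6% of those kept, against 10.6% and 10.5% of all genes lower. The list averaged log2 values of 5.41 to 5.70 on day 3 arrays and 5.10 to 5.26 on day 6 arrays. Ptprc, which defines leukocytes, reached the low-value threshold on 1 array, while Cd68 fell by 1.19 in control and by 1.23 in knockdown (adjusted p = 9.56e-07 and 5.39e-07 in limma). Of 6 endothelial markers 5 were kept, and 2 rose in each hairpin group. These are 40% of those kept, against 6.99% of all genes higher in control and 7.46% in knockdown. The other 3 kept markers had negative differences in control that did not pass, and 1 of the 5 had a negative difference in knockdown. List means lay between 5.84 and 5.98 at day 3 and between 6.06 and 6.21 at day 6. Emcn was below the threshold on every array. The fibroblast list had means between 8.93 and 9.05 at day 3 and between 8.95 and 9.42 at day 6. Replicate 1 was the highest at day 6 in both hairpin groups (9.42 in control and 9.35 in knockdown). Of 9 kept fibroblast markers 1 passed in each hairpin group, which is 11.1%. This was Pdgfrb, higher by 1.11 in control and 0.91 in knockdown. Differences were negative for 2 of the 9 in control and 4 in knockdown. The pluripotent list had a mean of 5.35 to 5.45 at day 3. It was 5.48 to 5.52 in day 6 control and 5.74 to 5.92 in day 6 knockdown. Of its 6 genes, 1 rose with time in control and 3 in knockdown (16.7% and 50%, against 6.99% and 7.46% of all genes). For the knockdown at day 6, 1 of the 6 passed, higher (adjusted p = 0.00261 in limma), against 0.0392% of all genes. Nanog averaged 5.57 in day 6 control and 6.20 in day 6 knockdown, and Utf1 4.84 and 5.71. Dppa5a, at 5.06 and 5.04, was the 1 gene with a negative difference. The part of these cell types in the changes of the 10 genes was not tested.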

How the data were processed

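Per the labels, RNA (100 ng) from 12 samples in 4 groups of 3 was hybridised to Affymetrix arrays. The authors deposited linear signal intensities (4.71 to 13421), which the submitters' processing notes credit to RMA and Affymetrix Expression Console 1.3.0.187. The log2 of each deposited intensity was taken. Gene names and IDs came from the platform annotation. Genes at or above the array's 30th percentile (log2 4.30 to 4.38) in at least 3 arrays were tested (17860 of 22180). Groups were compared with limma 3.58.1 in R 4.3.3, with 1 mean per group over 12 arrays (residual degrees of freedom 8, prior 4.37). Tests were two-sided, p-values were adjusted after Benjamini and Hochberg with a threshold of 0.05, and the code was tested on simulated data. SE is the standard error of a log2 fold change. Positions are from RefSeq (GRCm38.p6).

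The members and lists were chosen with earlier results of these data known. Of each list, up to 4 genes past the threshold were named by size in the comparison with most calls. Clcf1, Stat2, Map2k1 and Akt1 were named after their values were seen. Same-numbered arrays deviated together (r 0.14 to 0.37 in all 12 pairs, against -0.28 to -0.01 in 24 pairs of unlike number). Deviations from a group's mean cancel within the group, so these ranges depend on each other. The numbers were taken as a possible pairing, which the labels do not state. It entered only as the replicate block, and the main fit did not use it. Alternatives were other filters, quantile normalization, array weights, a variance trend, mean probe sets, the replicate block, 2-group fits and left-out arrays. Some listed genes were not analysed here. Figures were drawn with matplotlib 3.10.9 in Python 3.11.15.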

Additional observations from a re-analysis of the deposited data

Results flagged for a closer look

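Socs1 was singled out because every knockdown array was below every control array at day 3 (log2 fold change -0.12) and above every control array at day 6 (0.16). The difference of the knockdown effect between the days was 0.28 (SE 0.10, unadjusted p = 0.0142), and it did not pass in limma after adjustment over all genes (adjusted p = 0.918). The unadjusted p rests on the same values that singled Socs1 out, so it adds no support. Groups of 3 arrays are too small for a check of outlying samples.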

How the results depend on the processing

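Lifr, Il6st, Socs2 and Socs3 kept their direction and their call in both hairpin groups under all 14 alternatives run, and Jak1 did so in knockdown. No member past the threshold changed sign in 168 refits, while 34 refits of differences that had not passed did and 548 did not. The count of members past the threshold with time in control was 7, and 5 with quantile normalization or with the 2 groups fitted alone. It was 4 to 5 when 1 array was left out, with 4 without day 6 control replicate 2. In knockdown the count was 5, and 5 to 6 when 1 array was left out. In both knockdown comparisons and in their difference the count was 0 throughout. With the replicate number as a block the counts were 7 and 5 with time and 0 in the others, so that the block changed no call of a member. With the probe sets of a gene averaged, the Socs2 rise was 1.26 in control and 1.50 in knockdown. Of all genes, 2002 in place of 3140 passed with time in control without day 6 control replicate 1. The 7 genes called for the knockdown at day 6 were 2 with the 2 groups fitted alone and 3, 2 and 4 without day 6 control replicate 1, 2 and 3. The difference between the days had 1 call in place of 0 without day 6 knockdown replicate 1. The cause of these changes in count was not tested. The median 95% interval of a difference between 2 groups was 0.18 log2 units on either side, which limits what the knockdown comparisons could show.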

Other observations

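Immediate early genes, a list that serum and growth factors switch on within minutes, were tested between day 3 and day 6. Of 8 measured genes, 3 rose and 1 fell in control, and 3 rose and 3 fell in knockdown. Of all genes, 6.99% rose and 10.6% fell in control, and 7.46% rose and 10.5% fell in knockdown. Fos (0.75 and 0.53, adjusted p = 6.12e-05 and 6.04e-04 in limma) and Zfp36 (0.76 and 0.52, adjusted p = 0.00136 and 0.0122) rose in both hairpin groups, as did Egr1. Jun fell in both (-0.50 and -0.54, adjusted p = 7.18e-04 and 3.54e-04). Atf3 (-0.42, adjusted p = 0.0346) and Dusp1 (-0.28, adjusted p = 0.0160) fell in knockdown. In limma no gene of the list passed in a comparison of the hairpins, where 1 gene had an unadjusted p under 0.05 at day 3 and none at day 6.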
